A study of Rattus norvegicus with 6 samples.

Results

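The genes described are 8 transcripts that mark tissues lying against or inside the hippocampus rather than hippocampal neurons: Ttr, Calml4, Rarres2, Folr1, Kl and Igf2 of the choroid plexus and its coverings, and Hba-a1 and Alas2 of red blood cells. They were taken as a fixed list, which was chosen with earlier results of these data known. All 8 were found by symbol among the 17455 genes of the count table. How many of them pass a threshold is thus a description and not a test of the list. Such genes are commonly read as signs of other tissue in a brain sample, and they are compared here between Fmr1 KO rats and WT rats.

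The choroid plexus is a secretory epithelium that hangs in the brain ventricles, next to the hippocampus. It makes the cerebrospinal fluid and exports into it proteins and nutrients that it makes itself or takes up from blood. Its stroma and the leptomeninges, the thin membranes over the brain surface, add growth factors such as Igf2. Red blood cells remain in the vessels of brain tissue and carry globin mRNA left from their maturation, during which they also make heme.

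Hippocampal RNA came from 3 Fmr1 KO and 3 WT rats, all males aged 10 weeks on the Long Evans background, with 1 library per rat. The KO rats carried the allele LE-Fmr1em2Mcwi, which is not restricted to a cell type, and the WT rats came from the same crosses. The methods give 1 litter per group for this experiment. Whether KO and WT rats shared a litter is unclear, so litter may not be separable from genotype. The part of litter in the differences was not tested. The rats were decapitated under isoflurane and no perfusion is mentioned. Since each library is 1 rat, p-values set the difference between genotypes against the spread among rats of the same genotype. The libraries held 9619812 to 13390476 counts in KO rats and 11649652 to 12874085 in WT rats. Fmr1, the targeted gene, had 17.4, 13.1 and 11.6 CPM in KO rats, against 47.6, 50.5 and 51.6 CPM in WT rats, where CPM are counts scaled to library size with TMM factors (log2 fold change -1.83, SE 0.12, adjusted p = 5.7e-06 from edgeR). Among 10 tested hippocampal neuron genes, those with an unadjusted p under 0.05 were Bok, with 86.9, 71.9 and 85.6 CPM in KO rats and 110, 97.9 and 91.8 CPM in WT rats, and Rgs14 of CA2, with 162, 147 and 156 CPM in KO rats and 202, 183 and 163 CPM in WT rats, both lower in KO rats (log2 fold changes -0.30 and -0.24, SE 0.09 and 0.08, adjusted p = 0.337 and 0.365 from edgeR). Over all genes tested, 5.15% were lower and 4.19% higher at that threshold. Markers of hippocampal neurons were present in every library, with Slc17a7, the vesicular glutamate transporter, at 1563 to 1667 CPM in KO rats and 1619 to 1891 CPM in WT rats, and Prox1 of dentate granule cells at 30.6 to 38.1 CPM in KO rats and 29.1 to 35.8 CPM in WT rats. On the first principal component (28.8% of the variance) WT replicate 3 scored 6.2, within the KO range of 5.49 to 11, whereas the other WT libraries scored -19.6 and -12.4. For the 7 tested members, values without WT replicate 3 are therefore given beside those of all 6 libraries. Since this library was picked from these same data for lying near the KO libraries, leaving it out favours larger differences over all genes. An unadjusted p under 0.05 from edgeR was reached by 17.6% of all genes tested without it, against 9.35% with it.

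Changes are log2 fold changes of KO over WT from the quasi-likelihood test of edgeR, two-sided, with Benjamini-Hochberg adjustment over the 11800 genes with enough counts. Of the 8 genes, 7 were tested and Kl was not. At an adjusted p under 0.05, 0 of the 7 passed, where 0.0254% of all genes tested did, and DESeq2 passed 0 of the 4 to which it gave an adjusted p. At a nominal p, meaning an unadjusted one, below the 0.05 used in the methods, Ttr and Hba-a1 passed, both lower in KO rats, and 0 were higher. Hba-a1 reached the level needed for testing in 1 KO library and 3 WT libraries, so that it entered the test through the group where it is high, and its log2 fold change of -1.26 became -0.25 (unadjusted p = 0.364 from edgeR) with the alpha-globin rows summed. Of all genes tested, 9.35% passed this threshold, 5.15% lower and 4.19% higher in KO rats. In none of the 7 genes did the 2 groups separate completely, whereas the 3 KO values were all below the 3 WT values in 7.52% of all genes tested and all above them in 7.19%. All 7 log2 fold changes were below 0, as were those of 5843 of the 11800 genes. The 7 genes were measured in the same 6 libraries, and Calml4 and Rarres2 had log2 fold changes above 0 without WT replicate 1 (0.12 and 0.05). Without WT replicate 3, the genes at a nominal p under 0.05 were Folr1, Igf2 and Hba-a1 but not Ttr, all lower, where 17.6% of all genes tested passed, and 0 of the 7 passed an adjusted p of 0.05.

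**Figure D1:**
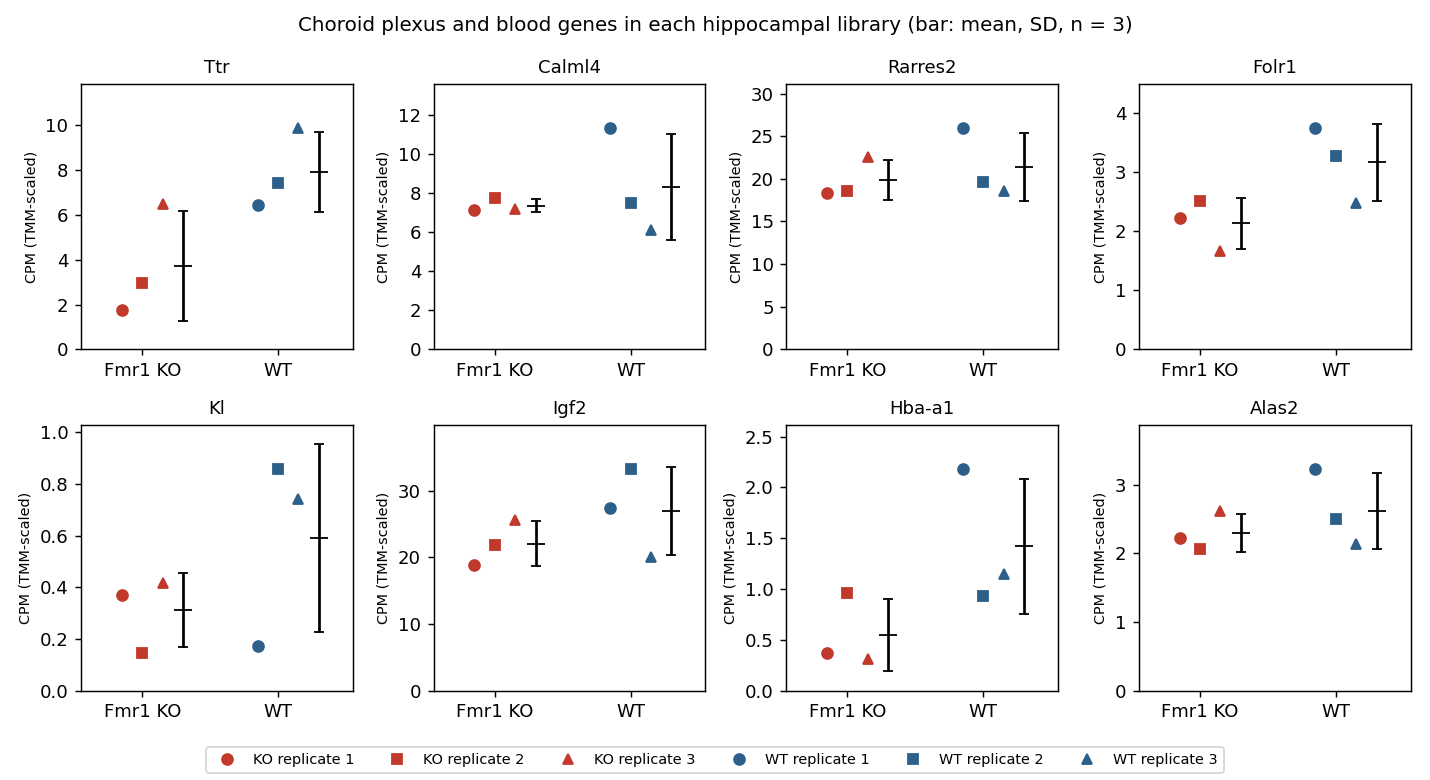
CPM (y axis, from 0, a separate scale for each gene) of the 8 genes in the 3 Fmr1 KO libraries (red, left) and the 3 WT libraries (blue, right), with marker shapes for the replicate numbers and black bars for the mean and SD. In each panel at least 1 KO library lies at or above the lowest WT library; for Ttr this is KO replicate 3 at 6.47 CPM, beside WT replicate 1 at 6.45 CPM.

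Ttr encodes transthyretin, the carrier of thyroxine and of the retinol-binding protein, and in the brain it is the most typical product of the choroid plexus epithelium. Its level was 1.76, 2.95 and 6.47 CPM in KO replicates 1, 2 and 3, from 19, 40 and 62 counts. In WT replicates 1, 2 and 3 it was 6.45, 7.41 and 9.88 CPM, from 74, 95 and 120 counts. KO replicates 1 and 2 lay below every WT library, and KO replicate 3 was level with WT replicate 1. The mean was 3.73 ± 2.45 CPM in KO rats and 7.91 ± 1.77 CPM in WT rats (SD, n = 3 each), 2.12-fold lower in KO rats. The log2 fold change was -1.12 (SE 0.39, 95% interval -2.0 to -0.24), with a nominal p of 0.0187 and an adjusted p of 0.438 from edgeR. Within the KO group alone the level differed 3.68-fold, and the 95% Poisson intervals of KO replicate 1 (1.06 to 2.75 CPM) and KO replicate 3 (4.96 to 8.30 CPM), which cover counting error only, did not meet. The nominal p exceeded 0.05 without KO replicate 2 (0.0750) or WT replicate 3 (0.0692, log2 fold change -0.93), and without KO replicate 3 the log2 fold change was -1.72 (adjusted p = 0.131 from edgeR). In bulk RNA of this kind, fewer cells of a type and less RNA per cell cannot be told apart.

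Folr1, the folate receptor alpha that moves folate across the choroid plexus into the cerebrospinal fluid, had 2.22, 2.51 and 1.67 CPM in KO replicates 1, 2 and 3, against 3.75, 3.28 and 2.47 CPM in WT replicates 1, 2 and 3. The groups overlapped only in that KO replicate 2 slightly exceeded WT replicate 3. The log2 fold change was -0.55 (SE 0.27, 95% interval -1.12 to 0.03, unadjusted p = 0.0617, adjusted p = 0.549 from edgeR), and without WT replicate 3 it was -0.70 (unadjusted p = 0.0291, adjusted p = 0.222). KO replicate 3, which had the most Ttr of the KO libraries, had the least Folr1 of all 6, with only 16 counts. Kl, which encodes Klotho, the co-receptor of the hormone FGF23, had 4, 2 and 4 counts in KO replicates 1, 2 and 3 and 2, 11 and 9 counts in WT replicates 1, 2 and 3. It reached the 0.843 CPM needed for testing in 0 KO libraries and 1 WT library. Its mean was 0.312 ± 0.144 CPM in KO rats and 0.591 ± 0.366 CPM in WT rats, a difference of -0.26 in log2(CPM + 1) with p = 0.3 in an exact two-sided permutation test, for which 3 against 3 libraries allow no p below 0.1.

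Calml4, a calmodulin-like protein of microvilli, had 7.13, 7.75 and 7.20 CPM in KO replicates 1, 2 and 3 and 11.3, 7.49 and 6.09 CPM in WT replicates 1, 2 and 3. Its KO libraries lay close together and inside the WT range, which WT replicate 1 extended upward. Rarres2 encodes chemerin, a secreted attractant of immune cells that acts through the receptor Cmklr1. It had 18.3, 18.6 and 22.5 CPM in KO replicates 1, 2 and 3 and 26.0, 19.7 and 18.6 CPM in WT replicates 1, 2 and 3, and WT replicate 1 was again the highest. The log2 fold changes were -0.17 for Calml4 (SE 0.21, 95% interval -0.61 to 0.28) and -0.11 for Rarres2 (SE 0.14, 95% interval -0.41 to 0.18), with adjusted p = 0.850 and 0.840 from edgeR. For both genes, differences of 2-fold in either direction lay outside these intervals. Without WT replicate 3 the values were -0.34 and -0.20.

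A wider list held 35 genes of choroid plexus epithelium, of which 33 were in the table and 15 were tested. In KO rats 2 were lower and 0 higher at a nominal p under 0.05, against 5.15% and 4.19% of all genes tested. None of the 15 passed an adjusted p of 0.05. The median log2 fold change of the 15 was -0.17, against 0.0017 over all genes tested. Beside Ttr, the lower gene was Enpp2, which encodes autotaxin, a secreted lysophospholipase that oligodendrocytes also make. Enpp2 had 110, 132 and 102 CPM in KO replicates 1, 2 and 3 and 136, 136 and 157 CPM in WT replicates 1, 2 and 3, and the highest KO value was below the lowest WT value (log2 fold change -0.32, SE 0.09, adjusted p = 0.341 from edgeR). For Msx1, a homeobox factor, it was -0.30 (adjusted p = 0.609). Cab39l and Ace, 2 of the genes of the list with the most counts, lay slightly above 0, at 0.07 and 0.09. Krt18 had 1.04 to 1.40 CPM in KO rats and 0.741 to 0.872 CPM in WT rats, from 9 to 19 counts. Its log2 fold change was 0.61 (SE 0.35, adjusted p = 0.611 from edgeR). The 15 tested genes held 1 with every KO value below and 1 with every KO value above, against 7.52% and 7.19% of all genes tested.

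Known markers of choroid plexus epithelium were unevenly detected. Kcne2, a potassium channel subunit of this epithelium, had 3.89, 3.98 and 3.34 CPM in KO replicates 1, 2 and 3 and 2.79, 4.21 and 2.22 CPM in WT replicates 1, 2 and 3 (log2 fold change 0.28, SE 0.26, adjusted p = 0.772 from edgeR), so that its value lay on the other side of 0 from those of Ttr and Folr1. Otx2, the transcription factor of its identity, had 0 counts in all 6, which allows a level of up to 0.221 to 0.313 CPM depending on the library (3 counts). The potassium channel Kcnj13 had 1, 1 and 1 counts in KO rats and 1, 1 and 4 in WT rats, and the prolactin receptor Prlr had 2, 1 and 0 counts in KO rats and 3, 2 and 2 in WT rats. The 18 untested genes of the list that are in the table, Otx2, Kcnj13, Prlr and Kl among them, did not pass the filter on low counts.

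Summed over the 33 genes, the level was 204, 233 and 202 CPM in KO replicates 1, 2 and 3, against 243, 245 and 266 CPM in WT replicates 1, 2 and 3. Enpp2 alone held more of the counts than the rest together, and without it the sums were 94.7, 101 and 101 CPM in KO replicates 1, 2 and 3, against 107, 109 and 109 CPM in WT replicates 1, 2 and 3. The log2 ratio of the group means was -0.24 with Enpp2 and -0.13 without it. The sums without Enpp2 averaged 98.9 CPM in KO rats and 108 CPM in WT rats. They still include Ttr, which averaged 3.73 CPM in KO rats and 7.91 CPM in WT rats. Across the 6 libraries, the Pearson correlation of log2 CPM with Ttr was positive for 7 of the 14 other tested genes, with a median of 0.11, and for Folr1 it was 0.24. These values describe 6 points that share library depth and genotype, and carry no test.

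**Figure D2:**
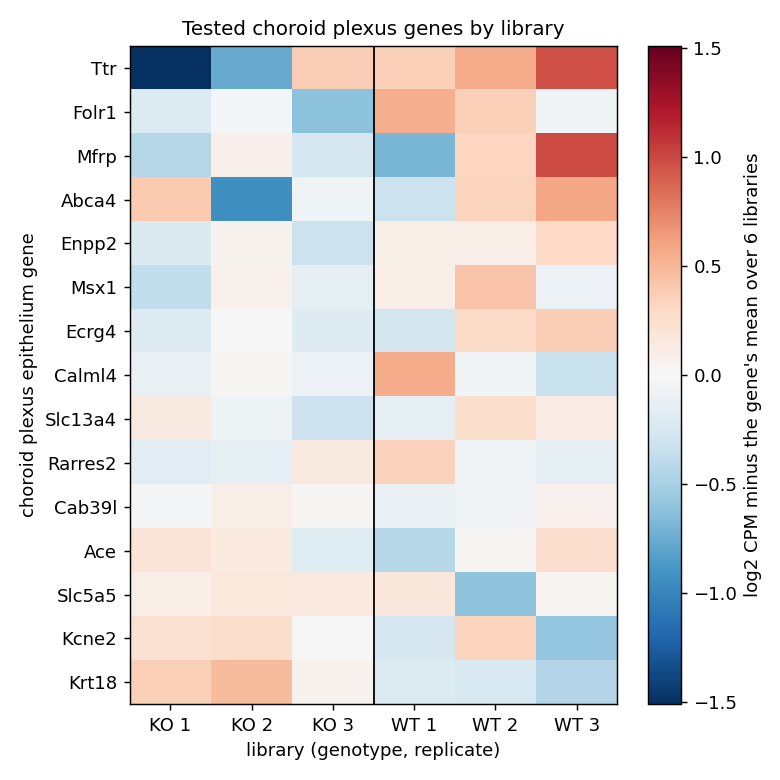
Log2 CPM minus the mean of the gene over the 6 libraries (colour, red above and blue below) for the 15 tested choroid plexus genes (rows, ordered by log2 fold change) in the KO and WT libraries (columns, KO left of the line). Ttr has the widest range, with KO replicate 1 lowest and WT replicate 3 highest, and the highest and lowest library vary from row to row.

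Among the tested genes whose levels over the 6 libraries were most like that of Ttr were Nol12, Lgmn, Itgae and Aktip, with Pearson correlations of log2 CPM of 0.98 to 0.99. None of these 4 is a choroid plexus marker of the list. Their own differences were smaller, from -0.10 for Aktip to -0.31 for Itgae in log2 fold change, against -1.12 for Ttr.

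Igf2 encodes insulin-like growth factor 2, an imprinted growth factor that adult brain makes mainly in leptomeninges, choroid plexus stroma and vessels. It had 18.8, 21.8 and 25.6 CPM in KO replicates 1, 2 and 3, against 27.5, 33.2 and 20.1 CPM in WT replicates 1, 2 and 3. Of the KO libraries, 2 exceeded WT replicate 3, and all 3 lay below the 2 other WT libraries. The mean was 22.1 ± 3.39 CPM in KO rats and 26.9 ± 6.58 CPM in WT rats (SD, n = 3 each). The log2 fold change was -0.29 (SE 0.18, 95% interval -0.69 to 0.10, unadjusted p = 0.130, adjusted p = 0.646 from edgeR). Without WT replicate 3 it was -0.47 (unadjusted p = 0.00312, adjusted p = 0.0795), and without WT replicate 2 it was -0.11 (adjusted p = 0.964), so that the size rested on which WT libraries were kept.

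In the list of leptomeninges and choroid stroma, 18 of 22 genes were tested. In KO rats 2 were lower and 1 higher at a nominal p under 0.05, against 5.15% and 4.19% of all genes tested. None of the 18 passed an adjusted p of 0.05. The lower genes were Col1a1, a chain of fibrillar collagen, with 5.28, 6.49 and 5.84 CPM in KO replicates 1, 2 and 3 and 8.45, 12 and 7.0 CPM in WT replicates 1, 2 and 3 (log2 fold change -0.64, SE 0.20), and the amino acid transporter Slc6a20 (-0.42, SE 0.18). The higher gene was Lum, the matrix proteoglycan lumican, with 12.9, 13.1 and 14.1 CPM in KO replicates 1, 2 and 3 and 8.54, 11.1 and 11.9 CPM in WT replicates 1, 2 and 3 (log2 fold change 0.34, SE 0.14). The 3 genes thus lay in opposite directions, each with groups that did not overlap, at adjusted p = 0.365, 0.485 and 0.483 from edgeR. Tbx18 and Slc6a13 also had every KO library above every WT library (log2 fold changes 0.52 and 0.40, adjusted p = 0.558 and 0.641 from edgeR). The 18 tested genes thus held 2 fully below and 3 fully above, against 7.52% and 7.19% of all genes tested. Ptgds, the abundant prostaglandin D synthase, had 165 to 220 CPM in KO rats and 182 to 216 CPM in WT rats, and the proteoglycan genes Dcn and Bgn had log2 fold changes of -0.15 and -0.04. The summed level was 313, 380 and 331 CPM in KO replicates 1, 2 and 3 and 347, 401 and 366 CPM in WT replicates 1, 2 and 3. Igf2 correlated positively with 9 of the 17 other tested genes of the list (median 0.19), most closely with Igfbp2, a binding protein of insulin-like growth factors (0.84). Over all tested genes its most similar were Ndufa7, Znrd2, Marcks, Ssr2 and Cyc1, each at 0.99.

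Ependyma, the ciliated lining of the ventricles to which the choroid plexus is attached, showed no difference that passed the test. Of 11 tested genes, 0 passed a nominal p of 0.05 in either direction, and the median log2 fold change was -0.02. Foxj1, the factor that drives motile cilia, had 10, 10.7 and 12.7 CPM in KO replicates 1, 2 and 3 and 10.4, 11.9 and 12.7 CPM in WT replicates 1, 2 and 3. The summed level was 66.3 to 77.8 CPM in KO rats and 69.6 to 72.8 CPM in WT rats.

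**Figure D3:**
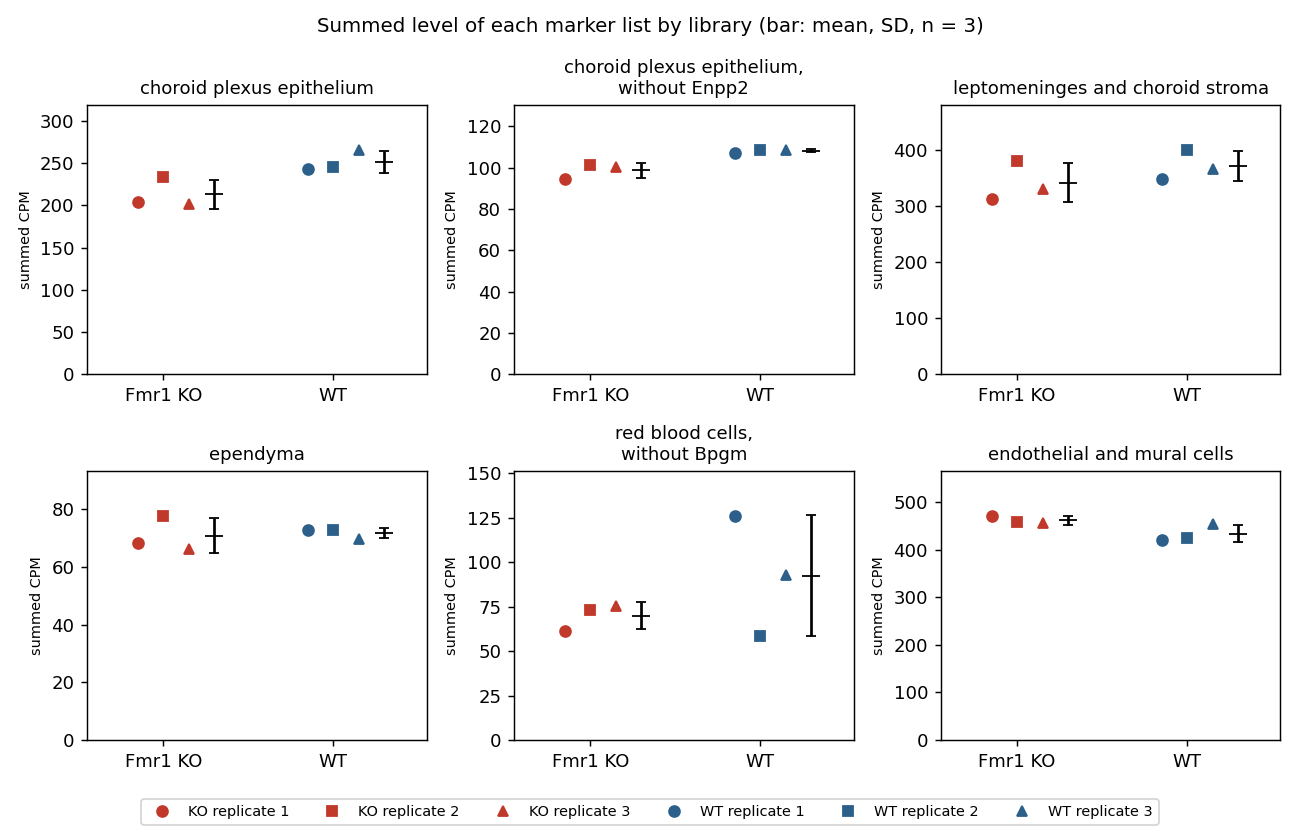
Summed CPM (y axis, from 0) of each marker list in the 3 Fmr1 KO libraries (red, left) and the 3 WT libraries (blue, right), with black bars for the mean and SD; 2 panels leave out the most abundant gene of the list. The choroid plexus sums without Enpp2, which still include Ttr, are 94.7 to 101 CPM in KO rats and 107 to 109 CPM in WT rats. The red blood cell sums spread widest among the WT libraries.

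Hba-a1 encodes a chain of alpha-globin, the partner of beta-globin in hemoglobin. The table held alpha-globin in 3 rows, Hba-a1, Hba-a2 and Hba1. RefSeq lists Hba1 as a synonym of both Hba-a1 and Hba-a2, and these 2 genes lie beside each other on chromosome 10 of GRCr8. How reads that fit both copies were counted is not given in the sources used here, so the split of counts between these rows is uncertain. The promoter windows of the copies in RefSeq, from 250 bases before to 50 bases after the start, are printed to show how alike the copies are. They come from the reference strain and not from these rats, and capitals mark the 12 bases of 300 at which the windows differ, an identity of 96.0%. Hba-a1 lies at chr10:15842531-15842830 and Hba-a2 at chr10:15829089-15829388, both on the minus strand.
Hba-a1: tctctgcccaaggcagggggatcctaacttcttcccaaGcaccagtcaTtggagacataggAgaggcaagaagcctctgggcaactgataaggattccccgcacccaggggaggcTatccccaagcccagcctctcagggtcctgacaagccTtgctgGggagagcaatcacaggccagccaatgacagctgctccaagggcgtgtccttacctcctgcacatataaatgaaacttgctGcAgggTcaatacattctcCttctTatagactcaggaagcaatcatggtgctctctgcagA
Hba-a2: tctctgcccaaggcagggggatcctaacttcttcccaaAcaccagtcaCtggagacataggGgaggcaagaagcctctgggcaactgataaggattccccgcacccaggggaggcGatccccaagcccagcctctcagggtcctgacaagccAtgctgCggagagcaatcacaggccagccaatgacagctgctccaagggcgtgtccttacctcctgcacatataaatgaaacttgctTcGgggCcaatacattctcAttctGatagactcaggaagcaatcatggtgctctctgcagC
Of the last 50 bases of the windows, which are transcribed, 47 are the same.

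The row Hba-a1 had 4, 13 and 3 counts in KO replicates 1, 2 and 3, or 0.370, 0.959 and 0.313 CPM, against 25, 12 and 14 counts in WT replicates 1, 2 and 3, or 2.18, 0.936 and 1.15 CPM. KO replicates 1 and 3 lay below every WT library, and KO replicate 2 lay just above WT replicate 2. The row reached the level needed for testing in 1 KO library and 3 WT libraries, so it was tested through the group where it is high. The log2 fold change was -1.26 (SE 0.49, 95% interval -2.30 to -0.22, unadjusted p = 0.0210, adjusted p = 0.446 from edgeR). Its nominal p exceeded 0.05 without KO replicate 1 (0.0773), KO replicate 3 (0.0829) or WT replicate 1 (0.133), at log2 fold changes of -1.05, -1.02 and -0.83. Without KO replicate 2 the log2 fold change was -2.0 (unadjusted p = 0.00566 from edgeR, adjusted p = 0.385), and without WT replicate 3 it was -1.39 (unadjusted p = 0.0213 from edgeR, adjusted p = 0.196).

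The other alpha-globin rows were Hba1, which was tested, and Hba-a2, which held too few counts. Hba1 had 6.02, 4.87 and 7.51 CPM in KO replicates 1, 2 and 3 and 9.15, 4.13 and 6.09 CPM in WT replicates 1, 2 and 3 (log2 fold change -0.08, SE 0.27, adjusted p = 0.946 from edgeR), and Hba-a2 had 1 count in WT replicate 3 and 0 elsewhere. The difference between the fold changes of Hba-a1 and Hba1 was not tested, and their 95% intervals overlap (-2.30 to -0.22 for Hba-a1 and -0.67 to 0.51 for Hba1). With the 3 rows summed before the fit, a choice made after the values were seen, alpha-globin had 6.39, 5.83 and 7.83 CPM in KO replicates 1, 2 and 3, against 11.3, 5.07 and 7.33 CPM in WT replicates 1, 2 and 3. The KO libraries then lay inside the WT range, with a log2 fold change of -0.25 (SE 0.26, 95% interval -0.81 to 0.32, unadjusted p = 0.364, adjusted p = 0.813). The row Hba-a1 held 5.80% (95% exact binomial interval 1.60 to 14.2%), 16.5% (9.06 to 26.5%) and 4.0% (0.833 to 11.2%) of the alpha-globin counts in KO replicates 1, 2 and 3. In WT replicates 1, 2 and 3 it held 19.2% (12.8 to 27.1%), 18.5% (9.92 to 30.0%) and 15.7% (8.88 to 25.0%).

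Beta-globin was counted in the rows Hbb, Hbb-b1 and Hbb-bs. Hbb had 47.5, 58.9 and 63.0 CPM in KO replicates 1, 2 and 3 and 113, 45.5 and 71.4 CPM in WT replicates 1, 2 and 3. The highest and the lowest library were both WT, and all KO libraries lay between them (log2 fold change -0.44, SE 0.39, adjusted p = 0.786 from edgeR). Hbb-bs had 8, 14 and 8 counts in KO replicates 1, 2 and 3 and 21, 12 and 81 counts in WT replicates 1, 2 and 3, of which WT replicate 3 was far the highest (log2 fold change -1.82, SE 0.79, unadjusted p = 0.0566, adjusted p = 0.546 from edgeR). For Hbb-b1 the log2 fold change was -0.10 (SE 1.07). The ratio of the chains varied less than either level. The 3 alpha-globin rows had 12.6, 9.68 and 11.7 counts per 100 beta-globin counts in KO replicates 1, 2 and 3 and 9.84, 10.5 and 8.95 in WT replicates 1, 2 and 3. WT replicate 1, the library with the most globin of both chains, and WT replicate 2, the library with the least, thus had ratios that differed little.

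**Figure D4:**
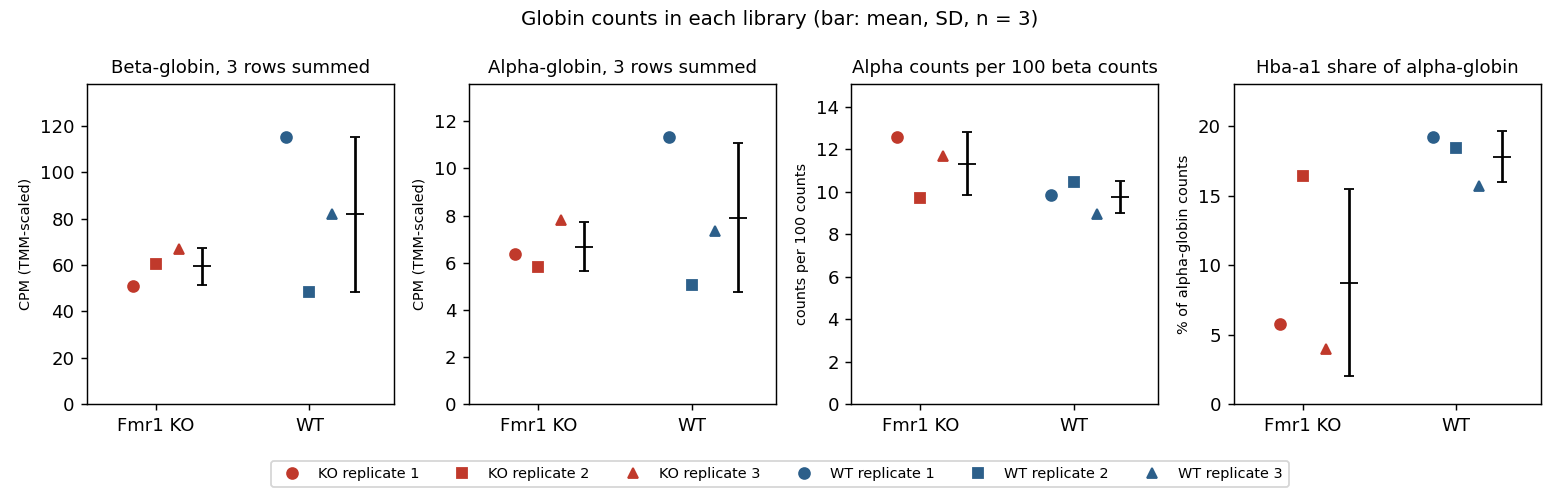
From left to right, summed beta-globin and alpha-globin CPM, alpha-globin counts per 100 beta-globin counts, and the share of alpha-globin counts in the row Hba-a1 (y axes from 0), in the 3 Fmr1 KO libraries (red, left) and the 3 WT libraries (blue, right), with black bars for the mean and SD. Both chains are highest in WT replicate 1 and lowest in WT replicate 2, while the share of Hba-a1 is 4.0 and 5.80% in KO replicates 3 and 1 and 15.7 to 19.2% in the 4 other libraries.

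Alas2 encodes the erythroid form of the enzyme that starts heme synthesis. It had 2.22, 2.07 and 2.61 CPM in KO replicates 1, 2 and 3 and 3.22, 2.5 and 2.14 CPM in WT replicates 1, 2 and 3, from 24 to 37 counts per library. WT replicate 1 was the highest, as for Hbb, and the other libraries of both groups were mixed. The log2 fold change was -0.19 (SE 0.27, 95% interval -0.77 to 0.38, adjusted p = 0.865 from edgeR), without WT replicate 1 it was -0.02 and without WT replicate 3 it was -0.32. Among the 9 genes of heme synthesis, all tested, 0 passed a nominal p of 0.05 in either direction, and 8 had log2 fold changes below 0 (median -0.10). Alas1, the form used by all cells, had 50.4, 55.4 and 51.9 CPM in KO replicates 1, 2 and 3 and 54.4, 54.7 and 50.1 CPM in WT replicates 1, 2 and 3. For Uros and Cpox, enzymes of later steps, the values were -0.30 and -0.15 on the log2 scale (adjusted p = 0.566 and 0.594). Over the 6 libraries, log2 CPM of Alas2 correlated positively with all 8 other heme synthesis genes (median 0.55). With the other tested red blood cell genes it did so for 4 of 7 (median 0.004), and neither carries a test.

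Other signs of blood were sparse. Of 26 red blood cell genes listed, 20 were in the table, 5 of them with 0 counts in every library, among them the erythroid factor Gata1 and the membrane protein Rhag, and 8 were tested. Hba-a1 was the only gene of this list at a nominal p under 0.05, and the median log2 fold change of the 8 was -0.15. Bpgm, the enzyme that makes the oxygen-release regulator of red blood cells and that other tissues also express, had 97.6, 97.7 and 93.9 CPM in KO replicates 1, 2 and 3 and 102, 92.2 and 93.9 CPM in WT replicates 1, 2 and 3. Without it the list summed to 61.2, 73.0 and 75.6 CPM in KO replicates 1, 2 and 3 and to 126, 58.5 and 92.6 CPM in WT replicates 1, 2 and 3. Of the platelet and leukocyte genes, 19 of 22 were in the table and 3 were tested, Lyz2, Mmp9 and Cd3e, with log2 fold changes of 0.04, 0.08 and 0.09. The platelet chemokine Pf4 had 0, 4 and 5 counts in KO rats and 1, 4 and 6 in WT rats. Genes of endothelial and mural cells, which form the vessels, gave 1 lower and 2 higher of 15 tested at a nominal p under 0.05 and a median log2 fold change of 0.10. Of these, the efflux pump Abcb1a was at 0.32 and the pericyte channel subunit Kcnj8 at -0.74 on the log2 scale (adjusted p = 0.341 and 0.390 from edgeR). Over all genes tested, 5.15% were lower and 4.19% higher at a nominal p under 0.05.

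Motifs were searched on both strands in the RefSeq promoter windows of 7 of the 8 genes, Folr1 being left out, since promoters of red cell genes are known to carry GATA boxes. The words were AGATAA or TGATAA or AGATAG or TGATAG for the GATA box, CCAAT for the CCAAT box, TATAAA or TATATA for the TATA box, TAATCC for the core bound by OTX2, and TGTTTAC or TATTTAC or TGTTTGC or TATTTGC for that bound by HNF3 factors. A GATA box was found for Hba-a1 (first base at -165 from the start), Alas2 (-136) and Ttr (-217), whereas 30.3% of the 33469 windows of this length in the table held one. Hba-a1 also had a TATA box at -28, found in 17.8% of windows, and CCAAT boxes at -71 and, in reverse, at -203, found in 37.5%, and Ttr had a CCAAT box in reverse at 17 bases after the start. No window of the 7 genes held the OTX2 or HNF3 words, which 7.2% and 14.2% of windows held. Only these exact words were searched. Their absence does not show that a window lacks sites for these factors written with other letters. The windows of Alas2 (chrX:22895200-22895499, plus strand, GRCr8) and Ttr (chr18:12218508-12218807, plus strand, GRCr8) are shown as those of the red cell enzyme and of the choroid plexus gene with the largest difference, with the GATA box in capitals.
Alas2: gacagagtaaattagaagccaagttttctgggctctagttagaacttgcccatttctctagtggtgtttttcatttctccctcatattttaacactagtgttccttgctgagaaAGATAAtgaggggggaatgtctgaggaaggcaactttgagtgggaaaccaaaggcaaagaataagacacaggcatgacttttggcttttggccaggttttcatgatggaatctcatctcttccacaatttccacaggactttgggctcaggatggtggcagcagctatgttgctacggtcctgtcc
Ttr: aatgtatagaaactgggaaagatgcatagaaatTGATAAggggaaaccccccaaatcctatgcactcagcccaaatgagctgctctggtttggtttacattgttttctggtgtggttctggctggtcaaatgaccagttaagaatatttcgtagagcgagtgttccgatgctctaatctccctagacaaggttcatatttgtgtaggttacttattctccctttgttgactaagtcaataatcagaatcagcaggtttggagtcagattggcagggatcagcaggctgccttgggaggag
These matches describe letters and not binding.

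Genes that act with the 8 were mostly level between the groups. Of 35 listed carriers, receptors and binding proteins, 33 were in the table and 28 were tested. At a nominal p under 0.05, KO rats had 3 of them lower and 0 higher, against 5.15% and 4.19% of all genes tested. The median log2 fold change of the 28 was -0.04. Among the lower genes were Fgfr1, a receptor that Klotho modifies, with 198, 183 and 201 CPM in KO replicates 1, 2 and 3 and 227, 215 and 220 CPM in WT replicates 1, 2 and 3 (log2 fold change -0.19, SE 0.06), and the chemerin receptor Cmklr1 (-0.61, SE 0.28). Their adjusted p-values were 0.365 and 0.526 from edgeR. Dio2, the deiodinase that activates thyroxine in glia, had 96.2, 111 and 153 CPM in KO replicates 1, 2 and 3 and 75.8, 95.4 and 92.9 CPM in WT replicates 1, 2 and 3 (log2 fold change 0.44, SE 0.19, unadjusted p = 0.0545). For Rbp4, which circulates bound to transthyretin, it was -0.36 (SE 0.18, adjusted p = 0.549). The receptors of Igf2, Igf1r and Igf2r, gave 0.20 and 0.07 on the log2 scale (adjusted p = 0.673 and 0.814), and the folate carriers Slc19a1 and Slc46a1 gave -0.07 and -0.03. None of the 28 passed an adjusted p of 0.05 in edgeR.

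**Figure D5:**
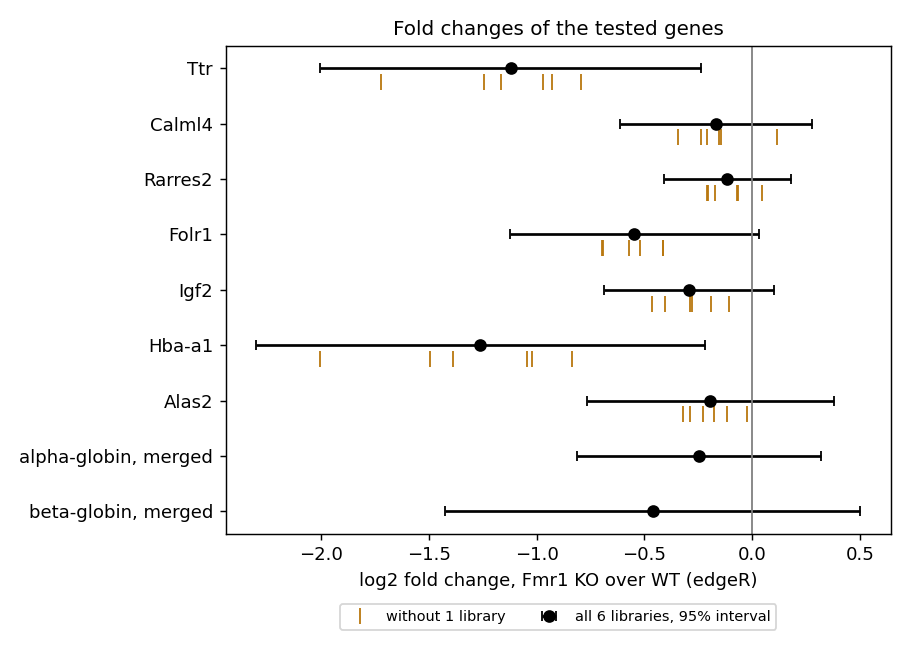
Log2 fold changes of Fmr1 KO over WT (x axis, edgeR) for the 7 tested genes and for the summed globin rows, with 95% intervals from all 6 libraries (black) and the values with 1 library left out (brown ticks, drawn for the 7 genes). The intervals of Ttr (-2.0 to -0.24) and Hba-a1 (-2.30 to -0.22) lie below 0, and that of the summed alpha-globin rows (-0.81 to 0.32) includes it. Hba-a1 reached the level needed for testing in 1 KO library and 3 WT libraries, so it was tested through the group where it is high.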

How the data were processed

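RNA-Seq counts of 3 Fmr1 KO and 3 WT hippocampi were analysed. The deposited values are raw counts per gene, which the authors made with htseq-count (intersection non-empty mode) from single-end reads that HISAT2 had placed on rn6 after a FastQC check. Versions, annotation, strand setting and the treatment of reads fitting several genes are not given in the sources used here. A second deposited table, the authors' own DESeq2 comparison with mean levels, fold changes and p-values, was not used.

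The tests used edgeR 4.0.16 under R 4.3.3. The low-count filter was filterByExpr (minimum count 10), and counts were scaled by TMM and tested by a robust quasi-likelihood fit with genotype as the only term, over 11800 genes. Log2 CPM for correlations used a prior count of 2. The fit was tested on simulated data. Alternatives were DESeq2 1.42.0, median-ratio scaling, library totals, no filter, a replicate block, leaving out each library, other list sums and, for Kl, a pseudocount of 0.1 in place of 1. Replicates differed by more than sampling noise (chi-square per degree of freedom 3.67 or more within groups).

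The members and gene lists were chosen with earlier results of these data known. Genes named were the members, the most abundant and the lowest-p genes of each list, and those most like Ttr, Igf2 and Hba-a1. Hba1 and the beta-globin copies were added after their values were seen, as were Otx2, Kcnj13, Prlr, Kcne2, Krt18, Slc6a13, Prox1, Gata1, Rhag, Igf1r, Igf2r, Rbp4, Slc19a1, Slc46a1, F5 and Lbp. Some genes that this rule selects are not reported here. The symbols of all 8 members matched RefSeq GRCr8, which was used for names, neighbours and promoter sequence. Levels are not per length, so a gene's part of a sum, or the ratio of globin counts, is one of counts and not of transcripts.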

Additional observations from a re-analysis of the deposited data

How the results depend on the processing

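Over all alternatives run, 76 of 78 member values kept the direction below 0 and 0 passed an adjusted p of 0.05. The exceptions were Calml4 and Rarres2 without WT replicate 1: leaving out 1 library gave log2 fold changes of -0.34 to 0.12 for Calml4 and of -0.21 to 0.045 for Rarres2. DESeq2 gave no adjusted p for Folr1, Hba-a1 and Alas2. Leaving out 1 library gave 1 to 3 members at an nominal p under 0.05, against 2 with all libraries, and 701 to 2095 of all genes, against 1103. At an adjusted p it gave 1 to 256 genes, against 3, the 256 being without WT replicate 3. At that threshold, no filter gave 9 genes, DESeq2 37 and the replicate block 17. Same-numbered libraries did not deviate together (correlations 0.03, -0.01 and -0.08). The labels do not say whether the numbers pair rats, and correlations over 3 rats per group cannot settle it. With the replicate block, Ttr had a log2 fold change of -1.18 (adjusted p = 0.0848 from edgeR). The log2 ratio of summed CPM was -0.13 in place of -0.24 for choroid plexus without Enpp2 and -0.40 in place of -0.18 for red blood cells without Bpgm. The red blood cell value was -0.02 without WT replicate 1 and -0.32 without WT replicate 2. The cause of the other changes was not tested. With 2 to 25 counts per library, Hba-a1 and Kl are limited by depth.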

Other observations

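The beta-globin copies took unequal shares of the beta-globin counts in single rats, in a way that did not follow genotype. Hbb-b1 held 5.10% (95% exact binomial interval 3.42 to 7.29%), 0.490% (0.134 to 1.25%) and 4.67% (3.17 to 6.60%) in KO replicates 1, 2 and 3. In WT replicates 1, 2 and 3 it held 0.151% (0.0183 to 0.546%), 4.34% (2.88 to 6.25%) and 4.63% (3.41 to 6.12%). KO replicate 2 and WT replicate 1 thus stood apart from the 4 other libraries. Hbb-bs held 1.25 to 1.72% in KO rats and 1.59%, 1.93% and 8.15% in WT replicates 1, 2 and 3. The intervals cover counting error only, and the assignment of reads between these copies is uncertain. KO replicate 2 was also the only KO library in which the row Hba-a1 held more than 10% of the alpha-globin counts.

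Coagulation factor V, F5, which choroid plexus expresses, had 0, 7 and 7 counts in KO replicates 1, 2 and 3 and 0, 1 and 9 counts in WT replicates 1, 2 and 3. Lbp, the lipopolysaccharide-binding protein, had 0, 0 and 1 counts in KO replicates 1, 2 and 3 and 0, 0 and 10 in WT replicates 1, 2 and 3. Both genes were chosen after their values were seen, and the highest values of F5 rest on 7 counts each in KO replicates 2 and 3 and 9 in WT replicate 3.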
